A study of Bos taurus with 46 samples.

Results

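This report describes 9 genes for receptors of hormones of pregnancy and growth in the circulating leukocytes of pregnant heifers. The genes were chosen by symbol: *PGRMC1*, *PGRMC2*, *PAQR7* and *PAQR8* for progesterone, *ESR1* for estrogen, *PRLR* for prolactin, *GHR* for growth hormone, and *INSR* and *IGF1R* for insulin and insulin-like growth factors. All 9 were found among the 30675 genes of the RefSeq count table, of which 25404 had at least 1 read in some library.

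Progesterone acts through a nuclear receptor and through membrane proteins, among them the PGRMC proteins and the PAQR family, while estrogen acts mainly through nuclear receptors. The prolactin and growth hormone receptors are cytokine-type receptors that signal through JAK2 and STAT5, and the receptors for insulin and IGF1 are tyrosine kinases that signal through IRS proteins, PI3-kinase and AKT. White blood cells carry several of these receptors, and the levels of the hormones that bind them shift during pregnancy.

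RNA of buffy coat leukocytes was sequenced from 23 Angus crossbred heifers at days 55 (D55) and 105 (D105) of pregnancy, which gave 46 libraries, 2 for each heifer. The heifers carried fetuses conceived by artificial insemination (AI, n = 8), or fetuses of in vitro produced embryos that were of normal weight (IVP-Normal, n = 6) or overgrown (IVP-LOS, n = 9). LOS is the large offspring syndrome, a fetal overgrowth condition of ruminants, and here it was assigned from fetal weight at collection on D105. The paper describes it after assisted reproduction and also, arising spontaneously, after natural or artificial insemination. According to the methods, the embryos made in vitro were sired by a single Brahman bull, the IVP heifers each received a pair of them, and some IVP heifers carried more than 1 fetus. Before breeding, the heifers of all groups were synchronized with an intravaginal device that releases progesterone and with a prostaglandin, and all were given gonadotropin releasing hormone at the time of insemination. Heifers are named by their numbers in the sample labels. The receptors were chosen with earlier results of these data known.

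Library depth ran from 18692653 to 24502012 reads assigned to genes. The D105 libraries of heifers 604 and 664 (both IVP-LOS) were the shallowest, at 18692653 and 19641136 reads, and had the largest shares of reads on no gene row (48.6% and 47.4%, against 36.5% to 42.7% in the other libraries). The labels place every D105 library of the AI and IVP-LOS groups in a set named BACKUP, and every other library in a set named New, so day and set cannot be told apart in those groups. In the IVP-Normal group both days belong to New. The study gives winter for D55 blood and summer for D105 blood of some heifers. Season may thus change with day in every group, and its part was not tested. Every leukocyte marker list used here was detected, with all 8 B cell markers, all 9 T cell markers and all 8 monocyte markers expressed. Of 8 erythroid markers, 5 had a median of 0 reads, while *HBB* (median 1704 reads), *ALAS2* (189.5) and *AHSP* (21) were expressed. The D105 libraries of heifers 604 and 664 had the lowest summed levels of the 8 monocyte markers on D105 (162 and 159 CPM, read counts per 1000000, against a median of 578 over all libraries). The D105 library of heifer 637 (IVP-LOS) had the highest sum of the 8 neutrophil markers measured, 14249 CPM against a median of 1685. Each *IGF1R* difference printed for IVP-LOS is followed by its value without these heifers. In bulk RNA, fewer cells of a type and less RNA per cell cannot be told apart.

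All 9 receptor genes passed the expression filter over the 46 libraries (edgeR's filterByExpr at a minimum count of 10), but 2 of them were close to the limit of detection. Each range that follows is over the 46 libraries. Among the progesterone-binding proteins, *PGRMC2*, a heme-binding membrane component, had 928 to 1610 reads (median 1297). Its relative *PGRMC1* had 331 to 1203 reads (median 755.5), and the membrane progestin receptor gene *PAQR8* had 179 to 1323 (median 499.5). The related membrane progestin receptor gene *PAQR7* had no more than 33 reads in any library (range 2 to 33, median 17). *ESR1*, the nuclear estrogen receptor alpha, had 35 to 247 reads (median 145), and *PRLR* had 45 to 349 (median 122.5). *INSR* had 289 to 868 reads (median 513), and *IGF1R* had 20 to 882 (median 159.5). *GHR* was the most weakly counted receptor, with 1 to 23 reads (median 7.5) and 3 reads or fewer in 4 libraries, so that its fold changes carry a wide counting error. Gene length was not taken into account in these counts, so they rank libraries for a gene and not one gene against another.

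The other receptors of the same families were read in the same libraries, and those named here for their reads alone were chosen after their values were seen. The nuclear progesterone receptor gene *PGR* had 0 reads in all 46 libraries, which allows up to 3 reads, or 0.122 to 0.16 CPM, per library. The progestin receptor relative *PAQR6* was well counted (median 190.0 reads, highest 290), whereas *PAQR5* had 1 to 17 reads and *PAQR9* had 0 to 5. *ESR2*, estrogen receptor beta, had 1 to 30 reads, and the membrane estrogen receptor *GPER1* had 2 to 34. Of 16 receptors for other hormones, 5 were expressed by the same filter, namely the thyroid hormone receptors *THRA* and *THRB*, the vitamin D receptor *VDR* and the adiponectin receptors *ADIPOR1* and *ADIPOR2*. The luteinizing hormone, follicle-stimulating hormone, oxytocin and leptin receptor genes (*LHCGR*, *FSHR*, *OXTR* and *LEPR*) each had a median of 0 reads. Hormone genes made mainly in other tissues were read beside the weak receptors. Whether leukocytes express them was not tested, so their reads are not a measure of noise. Of the 12 looked at, *PRL*, *INS*, *GCG* and *FSHB* had at most 1 read, but *GH1* had 7 to 50 reads, *TSHB* had 9 to 62 and *GNRH1* had 1 to 11. The reads of *GHR* (1 to 23) and *PAQR7* (2 to 33) overlapped those ranges. *PAG1* had 7407 to 16168 reads, and its symbol is shared between a pregnancy-associated glycoprotein and a leukocyte adaptor protein. It was left out of this comparison, a choice made after its values were seen.

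Levels were compared as CPM scaled by TMM factors, which adjust library sizes for composition. The steadiest receptor was *PGRMC2*, whose standard deviation of log2 CPM within groups was smaller than in all but 9.65% of the 16487 expressed genes. Its mean on D55 was 55.4 ± 4.19 CPM in AI (SD, n = 8), 57.7 ± 6.18 in IVP-Normal (n = 6) and 56.5 ± 3.19 in IVP-LOS (n = 9). On D105 these means were 54.0 ± 3.71, 57.5 ± 8.75 and 56.1 ± 6.44 CPM. The groups overlapped on both days.

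*PGRMC1* varied more, from 14.5 to 56.1 CPM. Its means on D55 were 34.0 ± 7.11 CPM in AI, 30.3 ± 7.60 in IVP-Normal and 38.2 ± 10.7 in IVP-LOS, and on D105 they were 32.7 ± 6.37, 29.0 ± 7.57 and 35.4 ± 10.1 CPM. The order of the groups was the same on both days, with neighbours closer than 1 SD.

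*IGF1R* stood at the other end, with a larger spread than 97.2% of the expressed genes. In the AI group *IGF1R* ranged from 4.16 to 14.7 CPM on D55 (median 6.16) and from 6.58 to 21.9 CPM on D105 (median 14.2). In the IVP-Normal group it ranged from 3.59 to 7.34 CPM on D55 (median 5.45) and from 2.98 to 12.1 CPM on D105 (median 7.30). In the IVP-LOS group it ranged from 4.53 to 19.3 CPM on D55 (median 7.04) and from 1.07 to 43.5 CPM on D105 (median 5.86). Heifer 637 held the highest *IGF1R* level of its group on both days, and heifer 664 the lowest on D105. All 6 groups overlapped.

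*INSR* was more even. In the AI group it ranged from 15.0 to 32.6 CPM on D55 (median 21.6) and from 17.7 to 39.1 CPM on D105 (median 26.5). In the IVP-Normal group it ranged from 18.3 to 30.4 CPM on D55 (median 21.5) and from 20.4 to 32.2 CPM on D105 (median 27.1). In the IVP-LOS group it ranged from 12.9 to 29.2 CPM on D55 (median 18.6) and from 14.6 to 33.9 CPM on D105 (median 22.6). Each group had a higher median on D105, and the ranges of the days overlapped.

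For the estrogen receptor *ESR1*, group means lay between 5.66 ± 1.65 CPM (AI D55) and 6.44 ± 2.00 CPM (AI D105), which is less than 1 SD. For *PRLR* they lay between 5.19 ± 1.05 CPM (AI D105) and 6.71 ± 3.81 CPM (IVP-Normal D55). The large SD of *PRLR* in IVP-Normal came with heifer 519, whose 2 libraries had 12.9 and 15.3 CPM, the highest of the 46. For *PAQR8* group means lay between 19.5 ± 5.01 CPM (IVP-Normal D105) and 27.1 ± 13.3 CPM (AI D105), and AI heifer 546 had the highest level, 59.4 CPM on D105. *PAQR7* means lay between 0.569 and 0.931 CPM, and *GHR* means between 0.313 and 0.478 CPM.

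**Figure D1:**
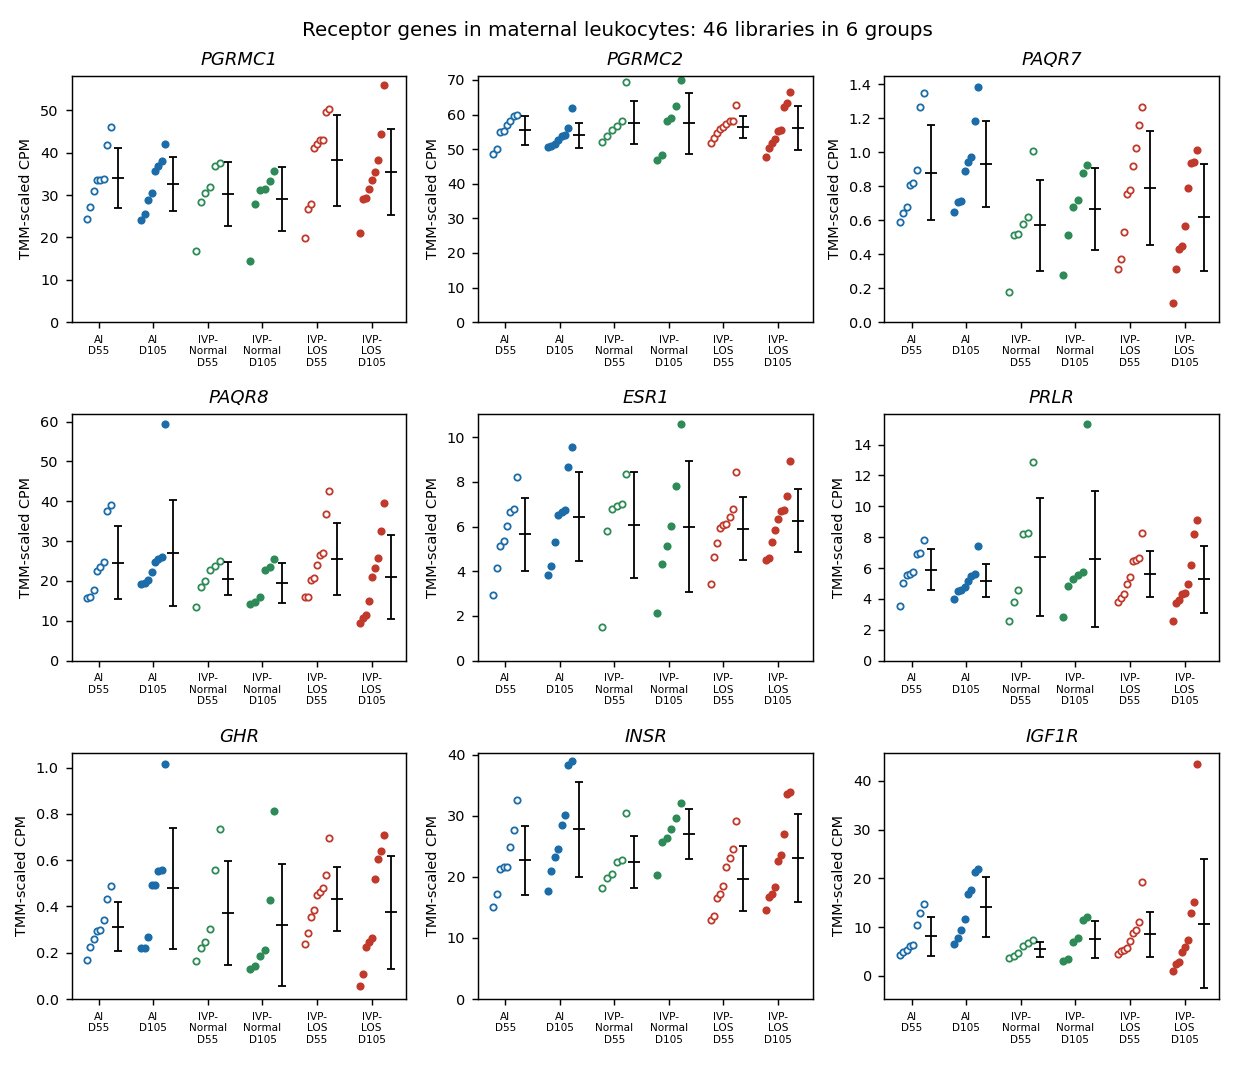
TMM-scaled CPM (vertical axes, each starting at or below 0) of the 9 receptor genes in the 46 libraries. Points are libraries in order of level (open, D55; filled, D105), with the mean and SD of each group of 6 to 9 heifers at its right; all groups overlap, *PGRMC2* is the narrowest, and single heifers stand out for *PRLR* (519), *PAQR8* (546) and *IGF1R* (637).

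Whether a heifer kept its receptor level between the bleeds was asked next. Each library's log2(CPM + 1) was taken relative to the mean of its group, and D55 was compared with D105 over the 23 heifers with 100000 permutations of heifers within groups (two-sided, adjusted over the 9 receptors). *ESR1* was the most heifer-specific receptor. Its D55 and D105 levels correlated with r = 0.89 and rho = 0.81, and both permutation p-values were 1e-05, the smallest these permutations can give (adjusted p = 9e-05). Without the 2 heifers farthest from the median, r was 0.82, and r was 0.90 over the 17 heifers with a D105 library in BACKUP and 0.88 over the 6 with one in New. Heifers with low *ESR1* on D55 tended to have low *ESR1* on D105 in either set.

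The levels of 5 other receptors were also related between days. *PGRMC1* had r = 0.72 and rho = 0.61 (permutation p = 0.00076 and 0.00305, adjusted p = 0.00331 and 0.0137), and r was 0.46 without the 2 farthest heifers. *INSR* had r = 0.67 and rho = 0.61 (permutation p = 0.00143 and 0.00524, adjusted p = 0.00331 and 0.0157), and r was 0.56 without the 2 farthest, 0.66 within BACKUP and 0.83 within New. *PRLR* had r = 0.69 (permutation p = 0.00147, adjusted p = 0.00331), but rho was 0.46 (permutation p = 0.0396, adjusted p = 0.0585) and r fell to 0.42 without heifers 519 and 628. Heifer 519 was not left out alone. For *PRLR* r was 0.58 over the 17 heifers with a D105 library in BACKUP, which include neither 519 nor 628, and 0.79 over the 6 in New. *PAQR8* and *PGRMC2* had r = 0.54 and 0.53 (adjusted permutation p = 0.0239 for both, and 0.0585 for both rho values). Without heifers 604 and 664 the adjusted permutation p for r was 0.152 for *PAQR8* and 0.104 for *PGRMC2*.

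For the remaining 3 receptors the test did not pass the threshold. *PAQR7* had r = 0.44 and rho = 0.45 (permutation p = 0.0554 and 0.0455, adjusted p = 0.0713 and 0.0585). *IGF1R* had r = 0.37 and rho = 0.07 (permutation p = 0.115 and 0.766, adjusted p = 0.129 and 0.766), and r was 0.0042 without heifers 637 and 546. *GHR* had r = 0.25 and rho = 0.12 (permutation p = 0.281 and 0.609, adjusted p = 0.281 and 0.685), at a median of 7.5 reads. *IGF1R*, the receptor with the widest spread, was thus not among those with a passing relation.

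Heifer 519, of the IVP-Normal group, was extreme for several receptors on both days. It had the lowest *ESR1* (1.51 CPM on D55 and 2.15 on D105) and the lowest *PGRMC1* (16.7 and 14.5 CPM) in its group. It also had the highest *PRLR*, *PGRMC2* (69.4 and 70.0 CPM) and *INSR* (30.4 and 32.2 CPM). The same heifer had the lowest summed neutrophil, monocyte, T cell, eosinophil, platelet and erythroid markers of its group on both days. It also had the highest B cell markers on both days, and the part of these markers in its receptor levels was not tested.

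**Figure D2:**
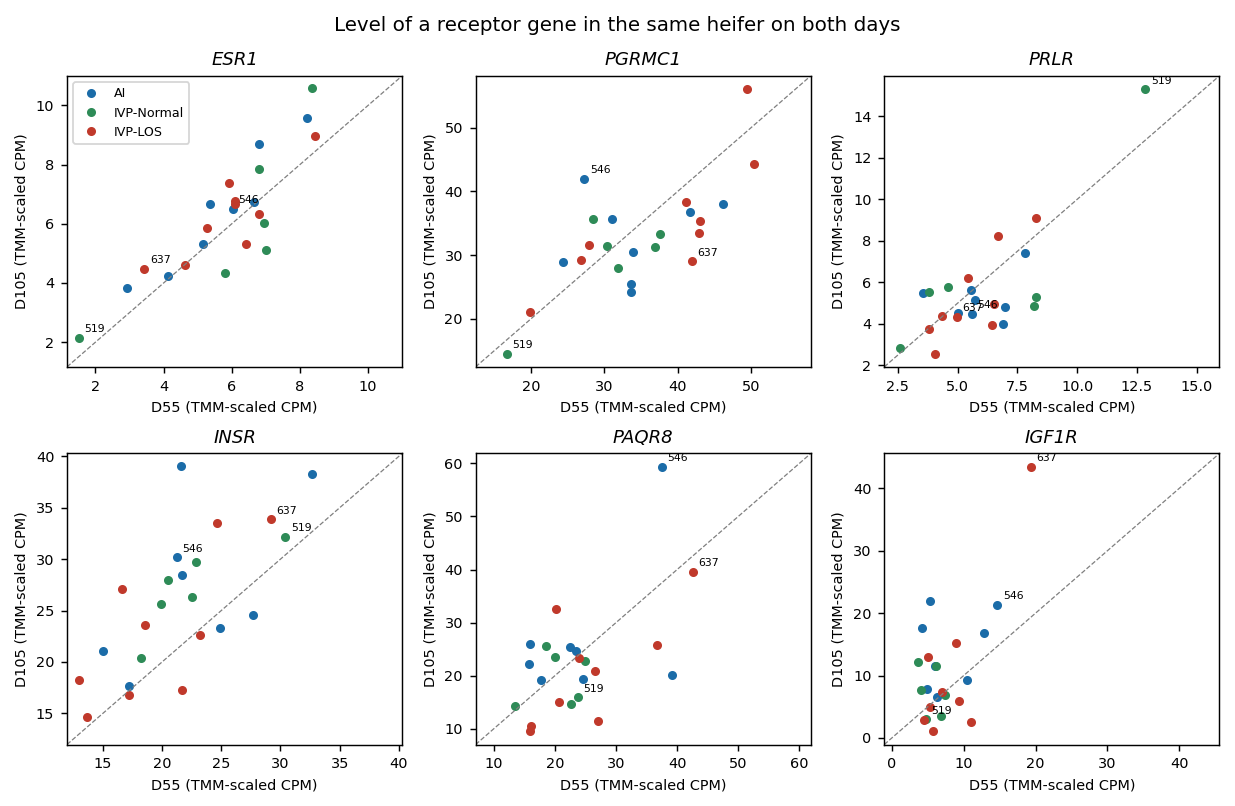
D105 level (vertical axis) against D55 level (horizontal axis) in TMM-scaled CPM for 6 receptors, 1 point per heifer, coloured by group. The dashed line marks equal levels; points of *ESR1* lie close to it (r = 0.89 after subtraction of group means), those of *IGF1R* do not (r = 0.37), and *INSR* points lie mostly above it.

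The first comparison of the design is D105 with D55. None of the 9 receptors was called in the fits without a heifer term (edgeR's quasi-likelihood test, false discovery rate, FDR, of at most 0.05), and *INSR* came closest over all heifers. In the AI group 0 of 8 tested receptors were called while 9.95% of all genes tested were (7.21% higher and 2.73% lower on D105), and 1 receptor had an unadjusted p under 0.05. In the IVP-Normal group 0 of 8 were called (2.45% of all genes), and none had an unadjusted p under 0.05. In the IVP-LOS group 0 of 9 were called (0.251% of all genes), and none had an unadjusted p under 0.05. Over all heifers, with group as a term, 0 of 9 were called (20.7% of all genes, 11.9% higher and 8.73% lower on D105) and 2 had an unadjusted p under 0.05. The balance of those calls turned from 1968 higher and 1440 lower to 1789 and 1857 with upper-quartile scaling, and to 2412 and 2817 with heifer as a block. *GHR* was not tested in the AI and IVP-Normal fits because it did not pass their filter. With upper-quartile scaling in place of TMM, the higher share of the AI calls was 58.7% in place of 72.5%, with 0 receptors called. DESeq2's likelihood ratio test called 0 receptors in AI (12.9% of all genes), 0 in IVP-Normal (4.91%), 0 in IVP-LOS (2.22%) and 1 over all heifers (*INSR*, FDR = 0.047, 21.9% of all genes).

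*INSR*, the insulin receptor, was higher on D105 in 18 of 23 heifers. The D105 to D55 ratio in a heifer ranged from 0.796 (heifer 557) to 1.81 (heifer 606), with a median of 1.17. It was higher in 6 of 8 AI heifers, in 6 of 6 IVP-Normal heifers and in 6 of 9 IVP-LOS heifers. The log2 fold change over all heifers was 0.26 ± 0.10 (SE), with FDR = 0.0676 in edgeR's quasi-likelihood test without a heifer term. Since the same heifers were bled on both days, the fit was repeated with heifer as a block, which changed the call. In that edgeR fit *INSR* rose by 0.25 ± 0.06 on the log2 scale, or 1.19-fold (FDR = 0.0016), while 31.7% of all genes were called.

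The call held in all 23 fits with the block that each left out 1 heifer (edgeR FDR from 0.000394 to 0.00362). It also held without heifers 604, 664 and 637 together (edgeR FDR = 0.00246). DESeq2 gave a log2 fold change of 0.27 ± 0.06 with the block (FDR = 0.000158, with 32.1% of all genes called). Within groups the log2 fold changes of *INSR* were 0.30 ± 0.18 in AI, 0.27 ± 0.14 in IVP-Normal and 0.24 ± 0.19 in IVP-LOS. None of these passed the threshold within a group, with or without the block (edgeR FDR from 0.0942 to 0.668), and with the block 5.5% of all genes were called in IVP-Normal and 1.07% in IVP-LOS. The IVP-Normal value is free of the change of set between days, but may not be free of a change of season.

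*IGF1R*, the receptor for IGF1, had the largest log2 fold changes between days of the receptors tested in AI and IVP-Normal. In the AI group it was higher on D105 in 7 of 8 heifers, with ratios from 0.886 (heifer 647) to 4.25 (heifer 648). The log2 fold change was 0.81 ± 0.31, with FDR = 0.126 in edgeR without a heifer term. With heifer as a block it was 0.81 ± 0.25, which passed the threshold (edgeR FDR = 0.0433, with 17.1% of all genes called), and DESeq2 with the block gave FDR = 0.00441 (18.8% of all genes called). The edgeR call was lost in 5 of the 8 fits that each left out 1 heifer, those without 533, 546, 590, 606 or 648 (FDR up to 0.0899). In IVP-Normal the log2 fold change was 0.45 ± 0.34 with 3 of 6 heifers higher. In IVP-LOS it was 0.35 ± 0.54 with 4 of 9 higher, and it was -0.18 ± 0.38 with the block, -0.09 ± 0.41 without heifer 637 and 0.49 ± 0.53 without heifers 604 and 664. Over all heifers it was 0.53 ± 0.26 (edgeR FDR = 0.152, and 0.287 with the block).

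*ESR1* was higher on D105 in all 8 AI heifers, with ratios of up to 1.31 (heifer 647) and a median of 1.12. Its log2 fold change in AI was 0.19 ± 0.22 (edgeR FDR = 0.656), and 0.19 ± 0.08 with the block (FDR = 0.15). It was higher in 3 of 6 IVP-Normal and 6 of 9 IVP-LOS heifers. *PAQR8* and *PAQR7* were each lower on D105 in 8 of 9 IVP-LOS heifers. Their log2 fold changes there were -0.27 ± 0.28 and -0.34 ± 0.34, and with the block they were -0.36 ± 0.16 and -0.37 ± 0.21 (edgeR FDR = 0.262 and 0.365). *PGRMC1*, *PGRMC2* and *PRLR* had log2 fold changes over all heifers of -0.08 ± 0.11, -0.02 ± 0.04 and -0.10 ± 0.16. The SE of *PGRMC2* was the smallest of the 9.

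**Figure D3:**
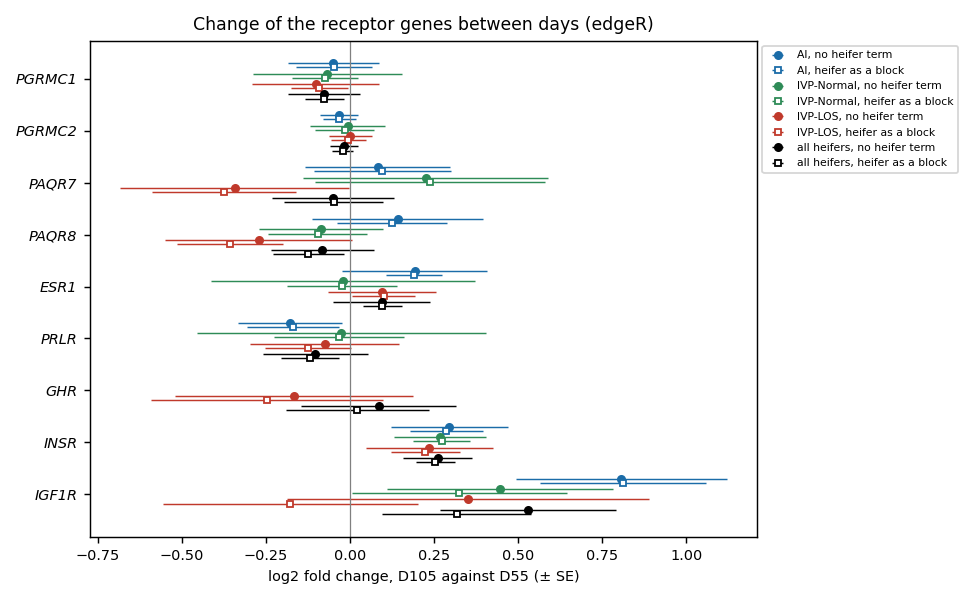
Log2 fold change of D105 against D55 with its standard error (horizontal axis) for the 9 receptors in the 3 groups and over all heifers. Circles are edgeR fits without a heifer term and open squares those with heifer as a block; *INSR* lies near 0.25 in every fit, *IGF1R* is highest in AI (0.81), and *GHR* has no AI or IVP-Normal value because it did not pass the filter there.

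**Figure D4:**
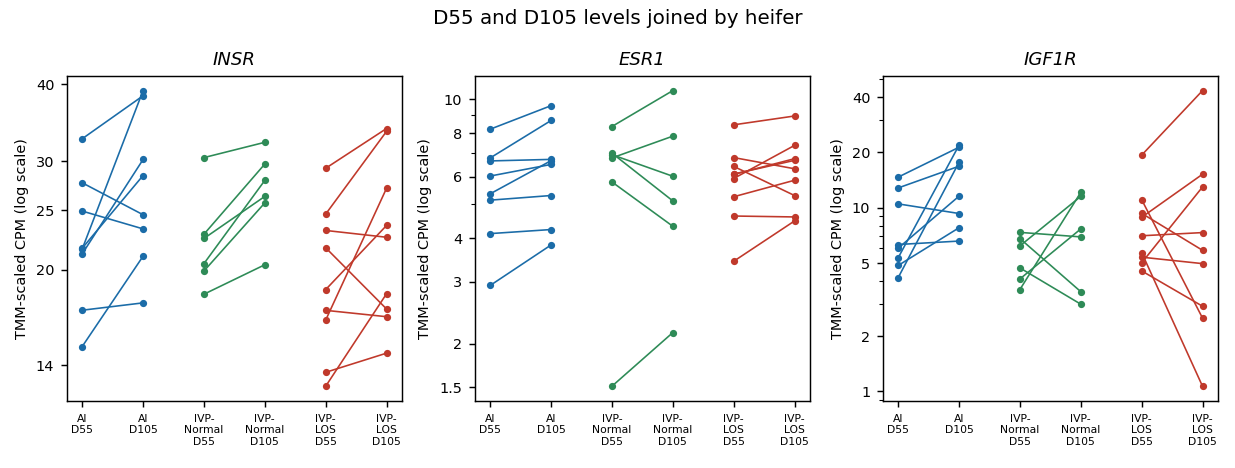
D55 and D105 levels of *INSR*, *ESR1* and *IGF1R* joined for each heifer (TMM-scaled CPM, logarithmic vertical axis) in the 3 groups. *INSR* is higher on D105 in 18 of 23 heifers including all 6 of IVP-Normal, *ESR1* in all 8 of AI, and the *IGF1R* lines of IVP-LOS diverge between heifers 637 (43.5 CPM) and 664 (1.07 CPM).

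The second comparison asks whether the receptors differed between heifers carrying AI, IVP-Normal and IVP-LOS fetuses. No receptor was called in any of the 6 comparisons within a day, and no gene of the table was either (edgeR's quasi-likelihood test, 0% called in each). The genes with an unadjusted p under 0.05 numbered 501 to 1522 per comparison, and DESeq2 called no receptor. On D55 it called 0.0977% of all genes between IVP-Normal and AI, 0.00656% between IVP-LOS and AI and 0.0194% between IVP-LOS and IVP-Normal. On D105 these shares were 0.0194%, 0.281% and 0.084%. All D55 libraries belong to the same set. On D55 the largest difference was for *IGF1R* between IVP-LOS and IVP-Normal, with a log2 fold change of 0.66 ± 0.31 (edgeR FDR = 0.839). Without heifer 637 it was 0.40 ± 0.24, and without heifers 604 and 664 it was 0.80 ± 0.30 (edgeR FDR = 0.622). Against AI on D55, IVP-Normal heifers had *IGF1R* at -0.58 ± 0.30 and *PAQR7* at -0.64 ± 0.31 (edgeR FDR = 0.518 and 0.505). The differences between IVP-LOS and AI on D55 lay between -0.20 (*INSR*) and 0.17 (*PGRMC1*) for all 8 receptors tested.

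On D105 the IVP-LOS and AI libraries share a set. Their differences ran from -0.58 ± 0.31 for *PAQR7* to 0.12 ± 0.16 for *PGRMC1* (edgeR FDR of 0.754 or more). *INSR* was at -0.26 ± 0.19 and *IGF1R* at -0.40 ± 0.55 in IVP-LOS against AI. Without heifer 637 that *IGF1R* difference was -1.08 ± 0.44 (edgeR FDR = 0.231), and without heifers 604 and 664 it was -0.10 ± 0.49. *IGF1R* in IVP-Normal against AI was at -0.92 ± 0.36 (edgeR FDR = 0.514), but there the group and the set cannot be told apart. For IVP-LOS against IVP-Normal on D105, the 8 receptors tested ran from -0.31 ± 0.34 (*PRLR*) to 0.53 ± 0.65 (*IGF1R*). Without heifer 637 that *IGF1R* value was -0.17 ± 0.51, and without heifers 604 and 664 it was 0.83 ± 0.58. Here too the group and the set cannot be told apart.

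The change between days was also compared between groups. None of the 9 receptors was called in any of the 3 tests of the difference (edgeR's quasi-likelihood test, 0% of all genes called, with or without the block). The counts of genes with an unadjusted p under 0.05 were 134 to 795, and DESeq2 called 0% of all genes in the comparisons with AI and 0.00618% between IVP-LOS and IVP-Normal, no receptor among them. The difference for *INSR* was -0.02 ± 0.24 between IVP-Normal and AI and -0.06 ± 0.27 between IVP-LOS and AI. For *IGF1R* these were -0.35 ± 0.48 and -0.46 ± 0.66, and the second was -0.90 ± 0.54 without heifer 637 and -0.32 ± 0.62 without heifers 604 and 664. For *GHR* they were -0.81 ± 0.59 and -0.77 ± 0.49, and the second was -0.44 ± 0.46 without heifers 604 and 664, whose D105 libraries had 1 and 2 *GHR* reads.

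Leukocyte samples differ in their mix of cells, so each receptor was set beside the summed CPM of 8 marker lists. All 8 neutrophil markers were called higher on D105 in AI (edgeR, 9.95% of all genes called), with a median log2 fold change of 1.42 against -0.02 over all genes. In IVP-Normal 5 of 8 were called (2.45% of all genes, median 1.42), and in IVP-LOS 0 of 8 (0.251% of all genes, median 1.37). *CXCR1* and *CXCR2*, the neutrophil chemokine receptors, rose by 5.26 ± 0.63 and 4.24 ± 0.50 in AI, and *MMP9*, a granule protease, by 4.40 ± 0.50 (edgeR FDR of 6.21e-05 or less). Of 7 monocyte markers tested in AI, *CD14* and *CD68* rose (log2 fold changes 1.01 ± 0.31 and 1.14 ± 0.26, edgeR FDR = 0.0454 and 0.00869). Of 4 eosinophil markers tested in each group, *SIGLEC8* and *ALOX15* rose in AI (1.82 ± 0.27 and 2.99 ± 0.76) and in IVP-Normal (2.09 ± 0.37 and 4.42 ± 0.98), and 2 were not called in either. In IVP-LOS *ALOX15* rose (4.43 ± 0.73, edgeR FDR = 0.0113) and 3 were not called. Of 6 NK cell markers, whose median log2 fold change in IVP-Normal was -0.19, *GZMB*, a granule protease of cytotoxic cells, rose there (2.11 ± 0.46, edgeR FDR = 0.025) and the other 5 were not called. The part of these shifts in the receptor changes was not tested.

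Receptor and marker levels were related over the 23 heifers on each day, again relative to group means and with 100000 permutations (two-sided, adjusted over 144 relations). In 16 of the 144 both r and rho had an adjusted permutation p of at most 0.05, and these lay with *PGRMC1*, *PGRMC2*, *PAQR8*, *PRLR* and *IGF1R*. *IGF1R* went with the monocyte markers. On D55 r was 0.86 and rho 0.79 (permutation p = 1e-05 and 9e-05, adjusted p = 0.00072 and 0.00324), and r was 0.78 without the 2 farthest heifers. On D105 r was 0.86 and rho 0.78 (permutation p = 3e-05 and 0.00019, adjusted p = 0.000864 and 0.00547), with r = 0.73 without heifers 637 and 664, 0.85 within BACKUP and 0.88 within New. *IGF1R* also went with the neutrophil markers on D105 (r = 0.86, rho = 0.82, adjusted permutation p = 0.000864 and 0.00192, and r = 0.72 without heifers 637 and 664), and against the B cell markers on D55 (r = -0.73, rho = -0.72, adjusted permutation p = 0.00588 and 0.0173). With the eosinophil markers on D105 it had r = 0.64 and rho = 0.63 (adjusted permutation p = 0.0209 and 0.0409).

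*PAQR8* followed the monocyte markers on both days. On D55 r was 0.80 and rho 0.70 (permutation p = 5e-05 and 0.00068, adjusted p = 0.00103 and 0.0163), and r was 0.69 without the 2 farthest heifers. On D105 r was 0.90 and rho 0.85 (permutation p = 1e-05 and 4e-05, adjusted p = 0.00072 and 0.00192), with 0.86 without the 2 farthest, 0.91 within BACKUP and 0.80 within New. *PGRMC1* went with the T cell markers on both days, with r = 0.77 and rho = 0.78 on D55 (adjusted permutation p = 0.00103 and 0.00192, r = 0.72 without the 2 farthest). On D105 r was 0.66 and rho 0.67 (adjusted permutation p = 0.00797 and 0.0179), with 0.54 without the 2 farthest, 0.65 within BACKUP and 0.90 within New. On D55 *PGRMC1* also ran against the B cell markers (r = -0.73, rho = -0.65, adjusted permutation p = 0.00234 and 0.0208) and with the platelet markers (r = 0.70, rho = 0.62, adjusted permutation p = 0.00461 and 0.039) and the erythroid markers (r = 0.66, rho = 0.61, adjusted permutation p = 0.0134 and 0.0409). Without the 2 farthest heifers these r values were -0.70, 0.53 and 0.52.

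*PRLR* ran against the erythroid and platelet markers on D105. For the erythroid markers r was -0.80 and rho -0.67 (adjusted permutation p = 0.000864 and 0.0208), with r = -0.72 without heifers 604 and 616. For the platelet markers r was -0.67 and rho -0.61 (adjusted permutation p = 0.00797 and 0.0485), with r = -0.53 without heifers 604 and 519. *PGRMC2* ran against the neutrophil markers on D55 (r = -0.72, rho = -0.67, adjusted permutation p = 0.00461 and 0.0179, r = -0.56 without heifers 664 and 519) and with the B cell markers on D105 (r = 0.59, rho = 0.59, adjusted permutation p = 0.015 and 0.0434). *INSR*, *ESR1*, *PAQR7* and *GHR* had no relation with an adjusted permutation p for r of at most 0.05 among their 16 each. The heifer-specific receptor *ESR1* thus showed no relation to any of the 8 lists that passed the threshold.

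The change of a receptor in a heifer was related to the change of the marker sums in the same way, over 72 relations. Passing in both measures were *IGF1R* with the monocyte markers (r = 0.76, rho = 0.74, permutation p = 0.00016 and 0.0003, adjusted p = 0.00576 and 0.0216) and *PAQR8* with the same markers (r = 0.72, rho = 0.65, permutation p = 8e-05 and 0.00099, adjusted p = 0.00576 and 0.0356). Without heifers 557 and 609 these r values were 0.74 and 0.58. For *IGF1R* r was 0.76 in the 17 heifers with a D105 library in BACKUP and 0.74 in the 6 of New. The change of *INSR* had r = 0.59 and rho = 0.57 with the monocyte markers (permutation p = 0.00491 and 0.00837, adjusted p = 0.0963 and 0.0745), and r was 0.43 without heifers 557 and 609. The change of *INSR* had r = 0.55 and rho = 0.48 with the eosinophil markers (adjusted permutation p = 0.114 and 0.151). With the B cell markers these were -0.53 and -0.57 (adjusted permutation p = 0.127 and 0.0745). With the neutrophil markers they were 0.05 and 0.08 (adjusted permutation p = 0.949 and 0.874). None of its 8 relations passed the threshold.

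**Figure D5:**
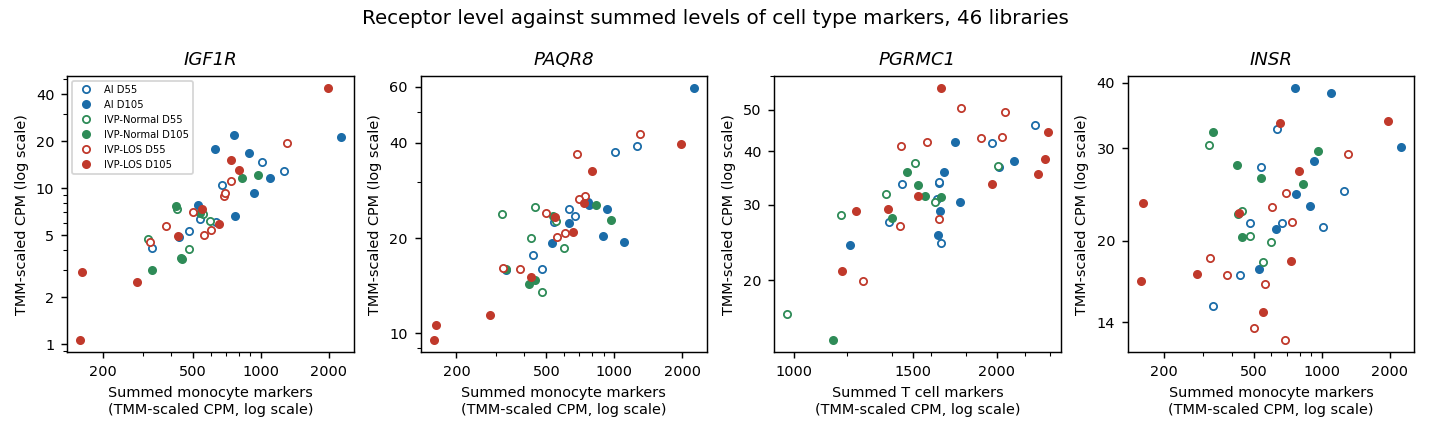
Level of a receptor (vertical axis) against the summed level of monocyte or T cell markers (horizontal axis), both in TMM-scaled CPM on log scales, in the 46 libraries (open, D55; filled, D105). *IGF1R* and *PAQR8* climb with the monocyte markers (r from 0.80 to 0.90 within a day), *PGRMC1* climbs with the T cell markers (r = 0.77 and 0.66), and *INSR* is more scattered.

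The genes that act beside and after these receptors were looked at as lists. Of 17 genes of prolactin and growth hormone signalling, all were expressed, and 4 rose and 0 fell on D105 in AI (edgeR, against 7.21% of all genes higher and 2.73% lower), with a median log2 fold change of 0.15 against -0.02 over all genes. The kinase of both receptors, *JAK2*, went from 43.6 ± 6.24 to 66.2 ± 13.4 CPM (log2 fold change 0.61 ± 0.12, edgeR FDR = 0.00324). *STAT5B*, the transcription factor they activate, went from 136 ± 14.1 to 198 ± 33.4 CPM (0.55 ± 0.10, edgeR FDR = 0.00125). *STAT3* rose by 0.43 ± 0.10 and *SIRPA*, a membrane protein of myeloid cells that binds phosphatases, by 0.88 ± 0.27 (edgeR FDR = 0.00668 and 0.0422). None of the 17 was called in IVP-Normal or IVP-LOS, where 2.45% and 0.251% of all genes were called. Mean *STAT5B* also went from 136.5 ± 13.8 to 174.8 ± 27.1 CPM in IVP-Normal and from 139.4 ± 11.7 to 170.7 ± 64.9 in IVP-LOS. None of the 17 was called for a difference in change between groups. Over all heifers 5 rose and 1 fell (11.9% of all genes higher and 8.73% lower), the latter being the adaptor *SH2B3* at -0.34 ± 0.08 (edgeR FDR = 0.000982), named after its values were seen.

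Of 28 genes of insulin and IGF signalling tested in AI, 5 rose and 0 fell (7.21% of all genes higher and 2.73% lower, median log2 fold change 0.02). *IRS2*, an adaptor of the insulin and IGF1 receptors, went from 22.6 to 44.9 CPM on D55 (lowest and highest of 8 heifers, median 31.6) to 48.6 to 146 CPM on D105 (median 70.1). The days did not overlap for *IRS2* in AI, and its log2 fold change was 1.21 ± 0.20 (edgeR FDR = 0.000705). *IRS2* is named for its small FDR between days, so the lack of overlap is no separate result. In AI the set changes with the day. The glucose transporter *SLC2A3* rose by 1.07 ± 0.17, the PI3-kinase subunit *PIK3CD* by 0.42 ± 0.10 and the transcription factor *FOXO3*, which AKT restrains, by 0.41 ± 0.10 (edgeR FDR = 0.00042, 0.00818 and 0.0119). None of the 28 was called in IVP-Normal or in IVP-LOS, where 2.45% and 0.251% of all genes were called. Mean *IRS2* also went from 37.2 ± 7.07 to 105.6 ± 87.8 CPM in IVP-Normal and from 33.55 ± 4.69 to 52.5 ± 26.6 in IVP-LOS. No gene of the list was called for a difference in change between groups. Over all heifers 7 of 29 rose and 0 fell (11.9% of all genes higher and 8.73% lower), among them *IRS2* by 1.07 ± 0.17 (edgeR FDR = 3.5e-06). *IRS1*, the other main adaptor, had no more than 14 reads in any library.

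Of 10 expressed partners and relatives of the progesterone receptors, *NCOA2*, a nuclear receptor coactivator, rose and the co-chaperone *FKBP4* fell in AI (log2 fold changes 0.33 ± 0.10 and -0.33 ± 0.08, edgeR FDR = 0.0433 and 0.0119, with 7.21% of all genes higher and 2.73% lower). None of the 10 was called in IVP-Normal or IVP-LOS (2.45% and 0.251% of all genes). Median *FKBP4* went from 65.26 to 56.45 CPM in IVP-Normal and from 53.29 to 48.98 in IVP-LOS. Its means rose there, with single D105 libraries at up to 295.9 and 144.1 CPM. The 7 tested estrogen receptor relatives and cofactors held 0 calls in AI, where 9.95% of all genes were called, too small a list to differ clearly from that share. Over all heifers *FKBP5*, a co-chaperone and well-known glucocorticoid target, rose by 0.97 ± 0.24 (edgeR FDR = 0.00289), the only 1 of the 10 progesterone partners called (11.9% of all genes higher and 8.73% lower). It lies outside the rule for named genes and was chosen after its values were seen. The ligand genes *IGF1* and *IGF2* had at most 8 and 16 reads in any library. *IGFBP1*, an IGF-binding protein known mainly from liver and decidua, was also chosen after its values were seen. It had 0 to 5 reads per library on D55 and 0 to 28 on D105, with group medians of 0 CPM on D55 in all 3 groups and of 0.246 to 0.548 CPM on D105 (edgeR over all heifers, FDR = 1.32e-08).

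The genes whose levels were most like a receptor's were taken from all 16487 expressed genes by Pearson r over the 46 libraries, relative to group means. These libraries share heifers, so the r values are descriptions. *IGF1R* had the closest companions, *SIRPB2* (r = 0.96), *FGL2* (r = 0.95) and *SKAP2* (r = 0.95). *PAQR8* was most like *CTSS*, which encodes the lysosomal protease cathepsin S (r = 0.92), a second copy of *PWWP2B* in the table (*PWWP2B_1*, r = 0.91) and *GPR137B* (r = 0.91). *PGRMC2* was most like *HDAC2*, a histone deacetylase, *ZCCHC9* and *EIF2S1*, a translation initiation factor subunit (r = 0.86, 0.86 and 0.85), and *PGRMC1* like *FAM213A*, *MAGED2* and the ubiquitin ligase *NEDD4* (r = 0.85, 0.85 and 0.84). *PRLR* was most like *ZYG11B* (r = 0.79), *PHTF1* (r = 0.77) and *LOC104973755* (r = 0.77).

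The other receptors had no close companion. The highest r was 0.61 for *ESR1* (*MYO18B*, then *L3MBTL1* and *RAPGEF5*), 0.66 for *INSR* (*SYCP2*, then *SLC38A4* and *LOC100335828*), 0.67 for *GHR* (*JAKMIP3*, then *FCHSD1* and *KIAA1328*) and 0.58 for *PAQR7* (*SPDL1*, then *LOC788425* and *SYPL1*). Among the receptors themselves, *IGF1R* and *PAQR8* were the pair most alike (r = 0.79). *PGRMC1* ran against *PRLR* (r = -0.57) and against its relative *PGRMC2* (r = -0.51), while *PGRMC2* and *PRLR* went together (r = 0.51). *INSR* and *IGF1R* had r = 0.38.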

How the data were processed

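Per the labels and the study's methods, leukocyte RNA was sequenced as paired-end reads, and the authors trimmed the reads, aligned them to ARS-UCD1.2 (HISAT2 2.1.0) and counted them per gene with HTSeq. What they deposited are whole, unscaled counts, with 1 column per library. A table on RefSeq symbols was used, and a table on Ensembl identifiers was not used because no names were paired with them. Rows that name no gene were left out. Strand use in counting is not given in the sources used here. In the RefSeq table of assembly ARS-UCD2.0, which matched all 9 receptors, *PAQR7*, *GHR* and *INSR* each overlap 1 long non-coding RNA gene, and *IGF1R* overlaps 3 genes.

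Tests were run in R 4.3.3 with edgeR 4.0.16 (TMM, filterByExpr with minimum count 10, quasi-likelihood F-test, Benjamini-Hochberg over all genes tested, FDR of at most 0.05). SE is the absolute log2 fold change divided by the square root of F. Alternatives were edgeR's and DESeq2 1.42.0's likelihood ratio tests, upper-quartile scaling, no filter beyond 1 read, heifer as a block, and heifers left out. Heifer numbers pair the libraries by animal. Residuals of the 2 libraries of a heifer correlated at 0.28 to 0.83 (mean 0.53), against a mean of -0.02 between heifers. On simulated counts with 200 genes changed 2-fold, the AI day test recovered 79.5% with 5 false calls, and 71.5% with 11 with the block. Over all heifers these were 90% with 15, and 88.5% with 10. The test of IVP-LOS against AI on D105 recovered 62.5% with 4. The simulated counts held no heifer effect, unlike the real libraries. They therefore cannot show what the block gains or loses on paired libraries.

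Between 18692653 and 24502012 counts per library set the precision, and a limit of 3 reads for a count of 0 covers counting error only. The receptors and gene lists were chosen with earlier results of these data known. Besides the receptors, at most 4 genes per list are named, those with the smallest FDR among genes called between days within a group, together with hormone genes of other tissues over 10 reads and the 3 genes most like each receptor. A gene that this rule names is not reported here. Other genes, named mostly for their read counts, lie outside the rule and were chosen after their values were seen. Relations to marker sums, the block fits with heifers left out and DESeq2 with the block were added after the data were seen.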

Additional observations from a re-analysis of the deposited data

Results flagged for a closer look

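In 54 sets of libraries (9 receptors in 6 groups), 8 had a highest or lowest library far from the rest by Dixon's ratio. The cut-off is one that independent, normal values pass in about 1 of 20 sets. Normality was not tested and the sets share heifers, so the rate for these sets is not known. Heifer 519 of the IVP-Normal group accounted for 4 of the 8. Its *PGRMC1* level on D105 was 14.5 CPM against 27.9 in the nearest heifer, and its *ESR1* level on D55 was 1.51 against 5.8 CPM. Its *PGRMC2* level on D55 was 69.4 against 58.2 CPM, and its *PRLR* level on D105 was 15.3 against 5.77 CPM. Heifer 637 of the IVP-LOS group had the highest *IGF1R* on both days, 19.3 CPM on D55 against 11.1 in the nearest heifer and 43.5 on D105 against 15.2. In the AI group on D105, heifer 546 had 59.4 CPM of *PAQR8* against 26.0 in the nearest heifer, beside the highest summed monocyte markers of the 46 libraries (2256 CPM). Heifer 517 had 1.02 CPM of *GHR* on D105 (23 reads) against 0.558 in the nearest heifer of that group. The part of the marker levels in these values was not tested.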

How the results depend on the processing

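With heifer as a replicate block, which follows the pairing of libraries by animal, 1 receptor was called in AI (*IGF1R*) and 1 over all heifers (*INSR*), in place of 0. DESeq2 called 1 over all heifers, and DESeq2 with the block 1 in each of these comparisons. Without heifers 604, 664 and 637 the blocked fit over all heifers called 1. Over fits without 1 heifer the counts ran from 0 to 2 in AI and from 0 to 1 over all heifers. The 2 were *INSR* and *IGF1R* in the blocked AI fit without heifer 517. The block changed no other receptor call. The relation of D55 and D105 levels lost its call for *PGRMC2* without heifers 604 and 664 (r = 0.47) or without TMM factors (r = 0.44) and for *PAQR8* without heifers 604 and 664 (r = 0.39), and *PAQR7* gained one without subtraction of group means (r = 0.47).

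Of 674 alternatives for the log2 fold change of a receptor, 645 kept direction and call, 6 gained a call and 23 turned in direction. Those turned without heifer 637 were, in IVP-LOS, *IGF1R* between days (-0.090), against AI on D55 (-0.19) and against IVP-Normal on D105 (-0.17), *PAQR8* against AI on D55 (-0.075) and IVP-Normal on D105 (-0.061), *ESR1* against IVP-Normal on D55 (0.041) and AI on D105 (0.025), and the change of *PGRMC1* against IVP-Normal (0.015). Those turned without heifers 604 and 664 were, in IVP-LOS between days, *PGRMC2* (-0.010), *PRLR* (0.0075) and *GHR* (0.16), *ESR1* against AI on D55 (-0.052), and the changes of *PGRMC2* (-0.0084), *PRLR* (0.025) and *IGF1R* (0.031) against IVP-Normal. With the block *IGF1R* (-0.18) and *PGRMC2* (-0.0049) turned in IVP-LOS, and *PAQR7* over all heifers did without 604, 664 and 637 (0.025). *PGRMC2* in IVP-LOS also turned with upper-quartile scaling (-0.028) and no filter (-0.0046), and DESeq2 turned *PGRMC2* (0.011) and *ESR1* (0.0013) in IVP-Normal and the change of *PGRMC2* against IVP-Normal (-0.0061).

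Leaving out 1 heifer at a time turned these day differences, given as ranges: in AI *PGRMC1* (-0.14 to 0.0075, with the block -0.14 to 0.017, and 0.0125 for the other heifer that turned it), *PAQR7* (-0.014 to 0.27) and *PAQR8* (-0.0057 to 0.33). In IVP-Normal these were *PGRMC2* (-0.044 to 0.076), *PAQR8* (-0.21 to 0.026), *ESR1* (-0.14 to 0.074) and *PRLR* (-0.16 to 0.11). In IVP-LOS they were *PGRMC2* (-0.018 to 0.034), *PRLR* (-0.14 to 0.0008), *GHR* (-0.32 to 0.0057) and *IGF1R* (-0.090 to 0.53). Over all heifers they were *PAQR7* (-0.11 to 0.0015, the same with the block) and *GHR* (-0.039 to 0.16, with the block -0.089 to 0.11). With the block *GHR* turned without 7 heifers in turn, at -0.089 (517), -0.041 (560), -0.023 (602), -0.020 (606), -0.0194 (648), -0.0190 (656) and -0.0006 (663). None of these had been called, and the cause was not tested.

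Over all genes the calls between days rose from 1517 to 2603 in AI and from 3408 to 5229 over all heifers with the block. In IVP-Normal 374 became 838 with the block, 748 with DESeq2 and 613 with edgeR's likelihood ratio test. In IVP-LOS 38 became 162, 336 and 227, and 12 without heifers 604 and 664 or 24 without heifer 637. In the group comparisons, where the quasi-likelihood test called 0, edgeR's likelihood ratio test called 1 to 11 genes, and 10 were called between IVP-LOS and AI on D105 without heifer 637. Counts on Ensembl genes were not run as an alternative. *GHR* and *PAQR7* are limited by depth.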
